A study of Rattus norvegicus with 2 samples.

Results

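Aminoacyl-tRNA synthetases are the enzymes that join each amino acid to its transfer RNA (tRNA), the step that fixes the meaning of the genetic code before the ribosome reads it. The genes described here were the cytosolic synthetases (19 genes, named with a final 1, and Farsa and Farsb) and the mitochondrial ones (16 genes, named with a final 2). They were taken by gene name from probe sets that carry a single gene symbol, and the group was chosen with earlier results of these data known. Of the 35 genes listed, 34 had such a probe set, 1 each, out of 18166 genes with a symbol on the array. The missing one, Iars2, was not analysed here. Total RNA was measured by a whole-transcript microarray in 2 cultures of C6, an established glioma cell line of the rat. One was the culture labelled SMiG, C6 cells treated with small molecules, and the other was labelled undifferentiated C6. The source label of SMiG names forskolin (which activates adenylyl cyclase), rapamycin (which inhibits mTORC1) and I-BET151 (which blocks BET bromodomains). The protocol text on both samples instead gives CHIR99021, a GSK3 inhibitor, at 20 µM with forskolin at 100 µM for 35 days, and the labels do not settle which holds. Both cultures come from 1 cell line in medium with serum. The series asks whether such treatment moves glioma cells towards a glial state.

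With 1 array per group there were no replicates, so the differences have no replicate check, and p-values are not given. Differences are log2 SMiG minus C6. As a technical yardstick, the differences of 1344 olfactory and vomeronasal receptor genes, taken as silent in these cells, had an SD of 0.32, which holds no variation between cultures. The 95th percentile of those receptor genes was 4.96 in SMiG and 4.86 in C6 on the log2 scale, and this was the floor of each array. A gene above the floor on at least 1 array counted as detected, as 10903 genes did, and their median difference was -0.0040. All 34 synthetases were detected, 33 of them above the floor on both arrays. In this bulk RNA, a change in the number of cells of a type and a change in RNA per cell cannot be told apart. The 7 listed markers of glioma lines and immature glia differed both ways. Sox2 differed by 1.16, Sox10 by 1.01, Cspg4 by 0.42, Olig2 by 0.35, Vim by 0.01, Nes by -0.15 and Pdgfra by -1.17. All 7 were above the floor on both arrays. Of 7 measured astrocyte markers 4 were above it on both, with a summed linear signal of 2302 in SMiG and 1309 in C6, and their differences ran both ways: S100b was at 10.87 in SMiG and 9.67 in C6, Fgfr3 differed by 1.84, Gfap by -0.56 and Gja1 by -2.30, while Aqp4, Slc1a3 and Slc1a2 were below it on both. The leukocyte genes Ptprc and Aif1 were also below it on both. Of 5 measured oligodendrocyte markers 4 were above the floor in SMiG and 1, Cnp, in C6. Mbp, Mog and Mag, counted in SMiG alone, lay between 4.96 and 5.17 there, close to the floor. Their differences were 0.28, 0.49 and 0.50. The summed linear signal of the 5 markers was 1639 in SMiG and 627 in C6. Cnp, at 10.57 in SMiG and 9.05 in C6, made up most of both sums. Of neuron markers 2 of 6 in SMiG and 3 of 6 in C6 were above the floor, of microglia markers 2 of 7 in each, and of endothelium markers 1 of 3 in SMiG and 2 of 3 in C6. Their summed linear signals were 232 in SMiG and 503 in C6 for neuron, 145 and 172 for microglia, and 70.9 and 162 for endothelium. The neuron marker Gad1 differed by -2.08 and Snap25 by 0.52. Of the microglia markers, Tmem119 was above the floor on both arrays, P2ry12 in SMiG alone and Cd68 in C6 alone. The part of such cell states in the differences below was not tested.

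All of these enzymes are encoded in the nucleus, and cytosol and mitochondria mostly use separate genes for the same amino acid. Gars1 and Kars1, for glycine and lysine, are known in mammals to serve both compartments, Eprs1 charges both glutamate and proline tRNAs, and Farsa and Farsb are the subunits of 1 phenylalanine enzyme. Uncharged tRNA is known to activate the kinase GCN2, which allows translation of the transcription factor ATF4, and ATF4 is known in mammalian cells to act on a number of cytosolic synthetase genes through elements with the letters TGATGNAA. Promoters of 3 kinds are shown, picked with their values known, so their number says nothing of how often the letters occur. Nars1, Mars1, Iars1, Tars1 and Aars1 hold TGATGCAA and were past 2-fold, on the lower side in SMiG, Lars1 and Eprs1 were past 2-fold as well and hold no TGATGNAA, and Hars1 and Kars1 had small differences and hold none. They give the 130 bases before the RefSeq gene start in the GRCr8 assembly, 5′ to 3′ on the strand of the gene, with the match in capitals. TTGCATCA is the same 8 letters read on the other strand.
Nars1 (chr18:60275783-60275912, minus strand): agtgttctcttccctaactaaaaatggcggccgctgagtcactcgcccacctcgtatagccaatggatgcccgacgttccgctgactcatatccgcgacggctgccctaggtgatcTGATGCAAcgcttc
Mars1 (chr7:65023754-65023883, minus strand): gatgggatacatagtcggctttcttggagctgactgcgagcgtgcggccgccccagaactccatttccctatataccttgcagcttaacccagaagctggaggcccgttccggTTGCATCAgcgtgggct
Iars1 (chr17:15193653-15193782, minus strand): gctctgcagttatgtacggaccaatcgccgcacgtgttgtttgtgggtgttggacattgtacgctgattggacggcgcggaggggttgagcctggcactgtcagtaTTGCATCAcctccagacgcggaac
Tars1 (chr2:62114803-62114932, minus strand): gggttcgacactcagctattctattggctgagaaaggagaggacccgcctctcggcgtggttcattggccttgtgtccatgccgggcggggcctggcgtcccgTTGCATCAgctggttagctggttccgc
Aars1 (chr19:55908352-55908481, plus strand): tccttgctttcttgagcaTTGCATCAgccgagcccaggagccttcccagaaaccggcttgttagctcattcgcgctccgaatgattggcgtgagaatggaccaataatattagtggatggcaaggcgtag
Lars1 (chr18:34506899-34507028, minus strand): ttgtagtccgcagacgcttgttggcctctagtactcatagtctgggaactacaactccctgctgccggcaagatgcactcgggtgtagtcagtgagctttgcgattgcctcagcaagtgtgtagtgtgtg
Eprs1 (chr13:99433123-99433252, plus strand): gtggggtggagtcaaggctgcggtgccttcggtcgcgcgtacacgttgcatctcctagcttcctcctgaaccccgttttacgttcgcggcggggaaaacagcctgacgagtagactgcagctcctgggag
Hars1 (chr18:28672713-28672842, minus strand): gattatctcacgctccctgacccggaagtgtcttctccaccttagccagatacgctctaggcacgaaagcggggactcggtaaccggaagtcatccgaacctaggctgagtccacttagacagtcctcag
Kars1 (chr19:56886084-56886213, minus strand): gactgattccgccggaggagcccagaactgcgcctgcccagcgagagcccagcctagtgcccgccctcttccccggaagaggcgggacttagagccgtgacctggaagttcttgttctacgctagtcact

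The cytosolic synthetase genes were lower in SMiG as a group. Of 19 genes, 17 had a lower value in SMiG (50.3% of all detected genes did) and 13 were at least 2-fold lower, against 6.53% of all detected genes at least 2-fold lower. None was at least 2-fold higher, where the share of detected genes was 3.2%. The median difference was -1.33, which is 2.51-fold lower, beside -0.0040 for all detected genes, and the values ran from -1.87 to 0.15. All 13 lay among the lowest 5% of detected genes by difference, from rank 178 for Nars1 to rank 522 for Aars1 of 10903. The plot of levels by array shows the same genes with their 2 values each.

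**Figure D1:**
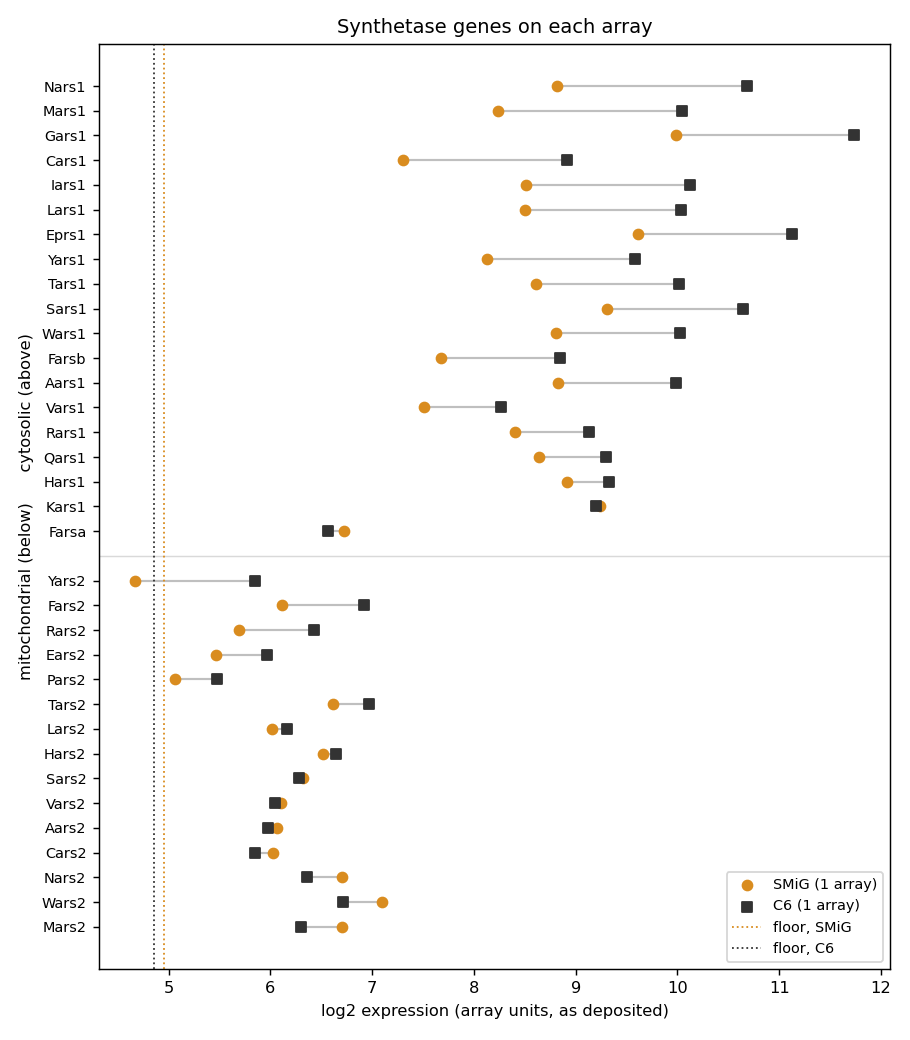
Log2 expression of 34 synthetase genes on the SMiG array (circles) and the C6 array (squares), cytosolic genes above and mitochondrial genes below, each sorted by difference, with the floors as dotted lines. Of the 19 cytosolic genes 17 have the SMiG circle left of the C6 square, and Yars2 is the only gene with a value below its floor.

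The lowest differences belonged to enzymes for asparagine, methionine and glycine. Nars1, the asparagine enzyme, was at 8.82 in SMiG and 10.68 in C6, 3.65-fold lower. Mars1, which charges methionine tRNAs including the initiator, was at 8.23 in SMiG and 10.05 in C6, 3.51-fold lower. Gars1, the glycine enzyme of both compartments, was at 9.98 in SMiG and 11.74 in C6, 3.37-fold lower. These 3 genes lay within 0.11 of each other on the scale of differences, less than the SD of the receptor genes. Cars1, for cysteine, stood at 7.30 in SMiG and 8.92 in C6, and Iars1, for isoleucine, at 8.51 in SMiG and 10.12 in C6. Their differences were both -1.61, and with Nars1, Mars1 and Gars1 they made up the 5 synthetases at least 3-fold lower, against 2.51% of detected genes.

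A further 8 cytosolic genes lay between 2-fold and 3-fold lower. Lars1, the leucine enzyme, which is also known as a leucine sensor for mTORC1, was at 8.51 in SMiG and 10.04 in C6, which differ by -1.53. Eprs1, the joined glutamate and proline enzyme, was at 9.61 in SMiG and 11.12 in C6, which differ by -1.51. Yars1, for tyrosine, was at 8.13 in SMiG and 9.58 in C6, which differ by -1.45. All 3 differences were more than 4 times the receptor SD, which comes from genes taken as silent. Over detected genes in the signal range of the cytosolic synthetases, the SD of the differences was larger, at 0.67. Tars1, for threonine, was at 8.61 in SMiG and 10.01 in C6, and Sars1, which charges serine tRNAs and also the selenocysteine tRNA, at 9.31 in SMiG and 10.64 in C6. Wars1, for tryptophan and known to be inducible by interferon, was at 8.81 in SMiG and 10.02 in C6, which differ by -1.21. Aars1, for alanine, was at 8.82 in SMiG and 9.99 in C6, which differ by -1.16.

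The other 6 cytosolic genes were within 2-fold. Vars1, the valine enzyme, was at 7.51 in SMiG and 8.26 in C6, which differ by -0.75. Rars1, for arginine, was at 8.40 in SMiG and 9.13 in C6, and Qars1, for glutamine, at 8.64 in SMiG and 9.29 in C6. Hars1, for histidine, was at 8.91 in SMiG and 9.32 in C6, which differ by -0.41. Kars1, the lysine enzyme of both compartments, was at 9.24 in SMiG and 9.19 in C6, which differ by 0.04, less than the receptor SD. In the order of the 19 differences, the widest gaps between neighbours were 0.46, between Hars1 and Kars1, and 0.41, between Aars1, the gene just past 2-fold, and Vars1, the gene just inside it. Both were smaller than 0.51, the SD of the gap between the differences of 2 probe sets of the same gene over 177 detected genes.

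The subunits of the phenylalanine enzyme had unlike differences. Farsb, encoding the beta subunit, was at 7.67 in SMiG and 8.84 in C6, 2.25-fold lower. Farsa, encoding the alpha subunit, was at 6.72 in SMiG and 6.57 in C6, which differ by 0.15. The gap between the 2 differences, Farsb minus Farsa, was -1.32 and rests on 1 probe set each.

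The lower genes lay in both catalytic classes, and both inside and outside the multi-synthetase complex. Synthetases fall into class I and class II by the fold of the catalytic domain. Of 9 class I genes 6 were at least 2-fold lower (median -1.45), and of 9 class II genes 6 were (median -1.17). Eprs1, which holds a domain of each, was left out of both. Over all detected genes 6.53% were at least 2-fold lower, the share to set beside these counts and those of the complex. In mammals a number of cytosolic synthetases form a large complex. Of its 7 members here (Eprs1, Iars1, Kars1, Lars1, Mars1, Qars1 and Rars1) 4 were at least 2-fold lower (median -1.51), and of the 12 genes outside it 9 were (median -1.27). The scaffold genes of the complex were all within 2-fold, as were 9842 of the 10903 detected genes. Aimp1 was at 8.38 in SMiG and 8.52 in C6, and Aimp2 at 8.73 in SMiG and 8.09 in C6. Eef1e1 was at 6.28 in SMiG and 6.56 in C6.

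The mitochondrial synthetases had differences near those of all detected genes. Of 15 genes, 8 were lower and 7 higher in SMiG, with a median difference of -0.12 and a range from -1.18 to 0.40. Only Yars2, the tyrosine enzyme, was past 2-fold by its measured values, 1 of 15 beside the 6.53% of all detected genes. It was at 4.67 in SMiG, below the floor, and 5.85 in C6, so that it was at least 1.85-fold lower. Fars2, for phenylalanine, was at 6.12 in SMiG and 6.92 in C6, and Rars2, for arginine, at 5.69 in SMiG and 6.43 in C6, with differences of -0.81 and -0.74. These 3 were the mitochondrial genes at least 1.5-fold lower, against 15.1% of detected genes, and among the cytosolic genes 16 of 19 were at least 1.5-fold lower.

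The other mitochondrial genes were spread on both sides of 0. Ears2, for glutamate, was at 5.47 in SMiG and 5.97 in C6, Pars2, for proline, at 5.07 in SMiG and 5.47 in C6, and Tars2, for threonine, at 6.62 in SMiG and 6.96 in C6. Those 3 had differences from -0.50 to -0.35, just beyond the receptor SD. Lars2, Hars2, Sars2, Vars2, Aars2 and Cars2, for leucine, histidine, serine, valine, alanine and cysteine, had differences from -0.15 to 0.18, inside it. Nars2, for asparagine, was at 6.70 in SMiG and 6.36 in C6. Wars2, for tryptophan, was at 7.10 in SMiG and 6.71 in C6. Mars2, for methionine, was at 6.70 in SMiG and 6.30 in C6, the highest difference of any synthetase at 0.40. The gene number given for the Mars2 probe set differs from the RefSeq one, so Mars2 was matched by symbol alone.

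The cytosolic and mitochondrial medians differed by -1.21, cytosolic minus mitochondrial. All 15 mitochondrial genes lay above the cytosolic median, and 11 of the 19 cytosolic genes lay below the lowest mitochondrial gene. Paired by amino acid, 16 pairs over 15 amino acids could be formed, with Eprs1 and Fars2 used in 2 pairs each. The cytosolic gene had the lower difference in 14 pairs, by more than that SD of 0.51 between probe sets of 1 gene in 11 and by at least 1 in 10, and the median of the pairs was -1.08. The widest gaps were those of methionine, at -2.21 between Mars1 and Mars2, and asparagine, also at -2.21 between Nars1 and Nars2. For arginine the 2 genes stood together, with Rars1 at -0.73 and Rars2 at -0.74, and for tyrosine Yars1 at -1.45 and Yars2 at -1.18 were both lower in SMiG. For phenylalanine the pairs split, with Farsb minus Fars2 at -0.36 and Farsa minus Fars2 at 0.96.

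**Figure D2:**
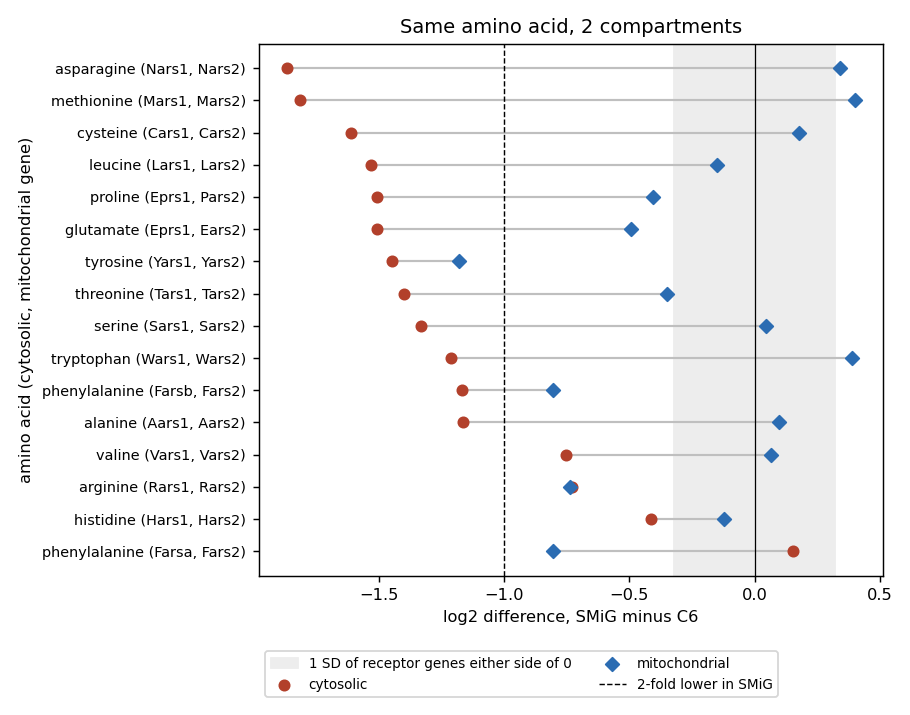
Log2 difference, SMiG minus C6, of the cytosolic gene (circle) and the mitochondrial gene (diamond) for each amino acid, with the grey band at 1 SD of the receptor genes and the dashed line at 2-fold lower. Circles lie left of diamonds in 14 of 16 pairs, and the diamonds farthest to the right are those of methionine, tryptophan and asparagine.

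The probe sets of the 2 compartments lay in different ranges of signal. Mean log2 signal of the 2 arrays ran from 6.65 to 10.86 for cytosolic genes and from 5.26 to 6.90 for mitochondrial genes, and Farsa alone of the cytosolic genes lay in the mitochondrial range. In the cytosolic range 5.88% of 6429 detected genes were at least 2-fold lower, and in the mitochondrial range 8.32% of 3654. The SD of the differences was 0.67 in the cytosolic range and 0.70 in the mitochondrial range. These shares include genes above the floor on 1 array alone. The part of signal level in the difference between the compartments was not tested.

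**Figure D3:**
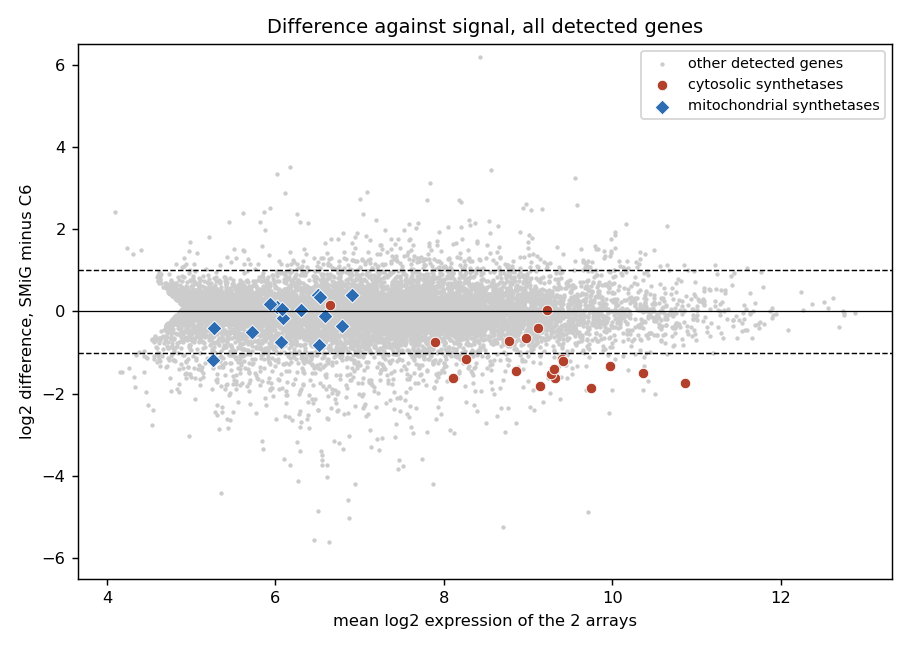
Log2 difference, SMiG minus C6, against mean log2 expression of the 2 arrays for all detected genes (grey), cytosolic synthetases (circles) and mitochondrial synthetases (diamonds), with dashed lines at 2-fold. Most circles lie below the lower dashed line at mean signals above 8, and the diamonds lie around 0 with only Yars2 below it.

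Hars1 and Hars2 are neighbours. In the GRCr8 assembly they lie head to head on chromosome 18, with starts 144 bases apart on opposite strands. Hars2 was at 6.52 in SMiG and 6.64 in C6, which differ by -0.12, beside -0.41 for Hars1. Histidine was thus a pair in which neither gene passed 2-fold and the differences were apart by less than the receptor SD.

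The letters TGATGNAA (N is any base) were searched on both strands in windows from 250 bases before to 50 after each RefSeq gene start, and every TGATGCAA is also a TGATGNAA. Promoters were matched by symbol for 32 of the 34 genes, with no entry for Gars1 and Rars1. Of 17 cytosolic genes 7 held TGATGNAA, or 41.2%, beside 2.05% of 8968 detected genes and 4.16% of all 27457 genes with an entry. All 7 held the form TGATGCAA, singled out after it was seen in them, which 0.58% of the detected genes and 0.827% of all genes held. The 7 were Nars1, Mars1, Cars1, Iars1, Yars1, Tars1 and Aars1, all at least 2-fold lower in SMiG, so that 7 of the 12 genes past 2-fold with an entry held it and 0 of the 5 within 2-fold. The 5 past 2-fold without it were Lars1, Eprs1, Sars1, Wars1 and Farsb. A gene with several windows counted if any of them held the letters. None of the 15 mitochondrial genes held TGATGCAA or TGATGNAA. The 7 genes with the letters had a median difference of -1.61 and the 10 cytosolic genes without them -0.96, from -1.53 for Lars1 to 0.15. In the sequences above, counting the last base before the gene start as -1, the match begins at base -14 in Nars1, -17 in Mars1, -24 in Iars1, -27 in Tars1 and -112 in Aars1, and in Cars1 and Yars1 at bases 18 and 39 of the transcript. Aars1 had a second, looser match, TGATGAAA, at base 10 of the transcript. Among all detected genes at least 2-fold lower with an entry, 5.58% of 556 held TGATGNAA and 2.7% held TGATGCAA. These 556 include the synthetases, and 7 of the 15 with TGATGCAA were the synthetases named above. Chac1, Nupr1 and Pycr1, named next, are among the 15 as well. The lists of the amino acid response and of amino acid synthesis are described further on, and of their detected genes Atf3 and Aldh18a1 had no entry. Of the 9 genes of these lists with an entry and at least 2-fold lower, 4 held TGATGNAA and 3 held TGATGCAA (Chac1, Nupr1 and Pycr1). Trib3, Cth, Asns, Shmt2, Psph and Cebpg, also at least 2-fold lower, did not hold TGATGCAA. Which of them held another form of TGATGNAA is not given here. Of the 16 genes of these lists with an entry and within 2-fold, 2 held TGATGCAA, Ppp1r15b and Got1, with differences of -0.36 and -0.80. A match is a description of the letters and not a measurement of binding.

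**Figure D4:**
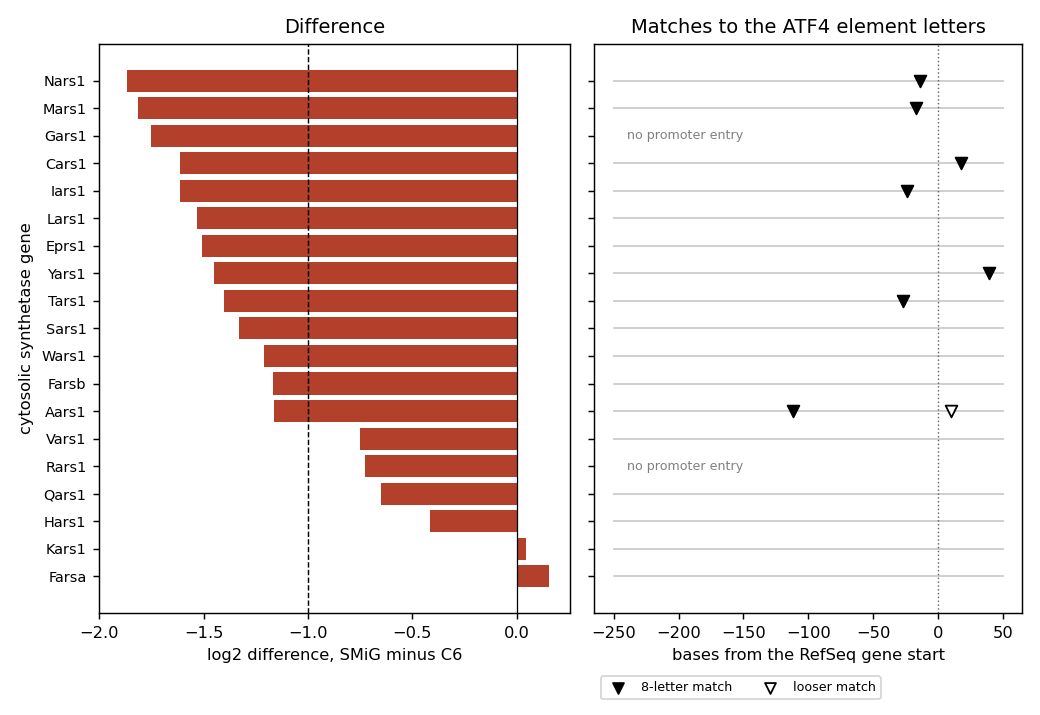
Left, log2 difference, SMiG minus C6, of each cytosolic synthetase as bars from 0, with the dashed line at 2-fold lower; right, the first base of each match to TGATGCAA (filled) or to TGATGNAA alone (open) in bases from the RefSeq gene start. The 7 filled triangles all stand beside genes past 2-fold, and 5 of them lie before the start.

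Among other genes that make, carry or use charged tRNA, each list had 0 or 1 genes at least 2-fold lower, beside 6.53% of all detected genes, and none at least 2-fold higher. Of 35 detected genes of tRNA maturation and modification, 22 were lower and 13 higher (50.3% of all detected genes were lower), with a median of -0.16, and the only one past 2-fold was Adat2, encoding a subunit of the adenosine deaminase of the tRNA anticodon, at 6.13 in SMiG and 7.25 in C6. In the list of tRNA editing, export and recycling, 1 of 7 was past 2-fold. That gene was Xpot, the exporter of tRNA from the nucleus, at 8.26 in SMiG and 10.25 in C6, 3.97-fold lower and further down than any synthetase. The 4 genes that finish mitochondrial tRNA charging (Qrsl1, Gatb, Gatc and Mtfmt) were all lower within 2-fold, with a median of -0.31. Of 8 detected factors that use charged tRNA in the cytosol none passed 2-fold (median -0.08), and of 6 in mitochondria 1 did, the initiation factor gene Mtif2, at 5.86 in SMiG and 6.91 in C6. In the selenocysteine route 0 of 5 detected genes passed 2-fold, and in the list of other synthetases and synthetase-like proteins 0 of 3.

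The lists of the amino acid response and of amino acid synthesis held larger differences. In the first, 4 of 15 detected genes were at least 2-fold lower and none higher, where the shares of all detected genes were 6.53% and 3.2%, and the median was -0.54. They were Nupr1 and Trib3, both under the SMiG floor and lower by at least 15.8-fold and 12.7-fold, the glutathione-degrading enzyme gene Chac1, 7.36-fold lower, and Cebpg, a C/EBP factor gene, 2.63-fold lower. Atf4 was at 10.41 in SMiG and 11.00 in C6, and Eif2ak4, encoding GCN2, at 7.02 in SMiG and 7.67 in C6, both within 2-fold. In the second list 6 of 12 were at least 2-fold lower, beside the same 6.53%, and none higher, and the median was -1.22. They were the proline enzyme genes Pycr1, 9.15-fold lower, and Aldh18a1, 3.05-fold lower, Cth, which makes cysteine and was at least 11.0-fold lower, Asns, which makes asparagine, 5.34-fold lower, and Shmt2 and Psph, of glycine and serine synthesis, 3.76-fold and 2.84-fold lower. The other 6 genes were within 2-fold, among them Phgdh and Psat1, of serine synthesis, with differences of -0.91 and -0.21, and Gpt2, which makes alanine, with -0.93. Both lists and the synthetases come from the same 2 arrays.

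**Figure D5:**
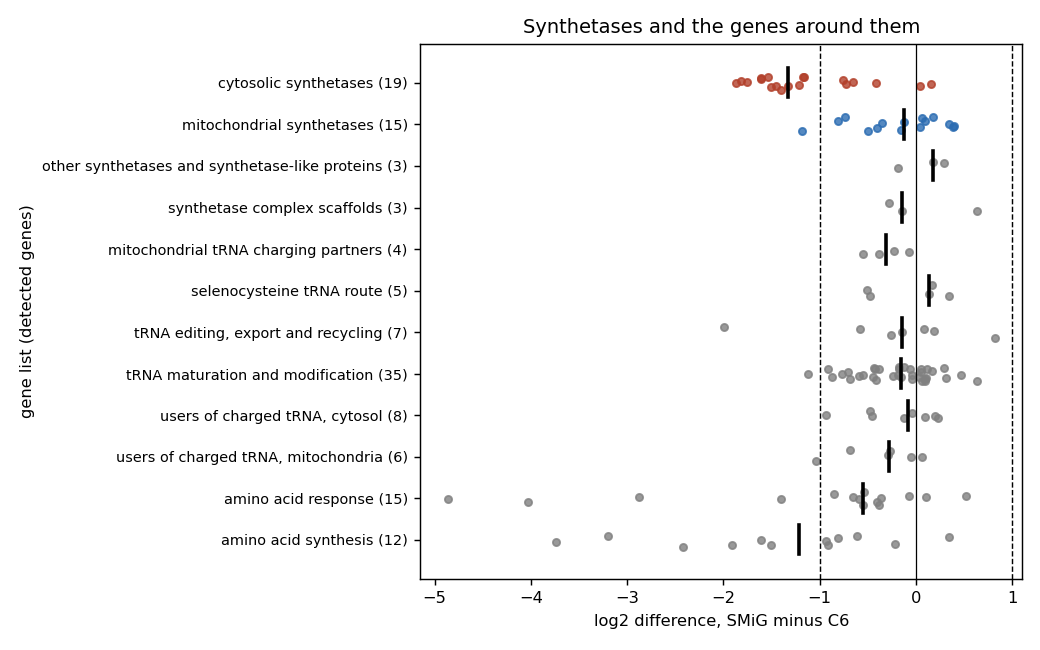
Log2 difference, SMiG minus C6, of each detected gene (points, spread vertically for legibility) in the synthetase groups and 10 lists of related genes, with the number of genes in parentheses, black bars at the medians and dashed lines at 2-fold. The medians of the cytosolic synthetases and of the amino acid synthesis list, -1.33 and -1.22, lie past 2-fold, and the other medians lie between -0.54 and 0.18.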

How the data were processed

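Expression was measured on 2 Affymetrix whole-transcript arrays, 1 of SMiG and 1 of C6, grouped by sample title. The deposited table gives 1 value per probe set for 36685 probe sets. The values are taken as log2 expression made by the authors and deposited on a common scale, since they run from 1.26 to 13.09 and the sorted columns differ by a median of 0.036. How the authors corrected background and normalised is not given in the sources used here, and how probes were combined could change any difference. No further normalization was applied.

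Genes were named from the platform annotation, through 18511 probe sets with 1 symbol, and RefSeq gene numbers matched 18394 of them. Averaging the probe sets of each gene gave 18166 genes. For 177 detected genes with exactly 2 probe sets, the gap between both differences had an SD of 0.51. Genes at a log2 difference of 1 or more either way counted as past 2-fold. If the dimmer array did not exceed its floor, the fold is against that floor and given as at least that fold. All 34 members are described; other genes are named if past 2-fold in a list or set by name. The members, lists and promoter motif were chosen with earlier results of these data known. The procedure was tested on simulated data, with shifts put in and noise drawn from the spread of the receptor genes alone. Those data held no variation between cultures, so the test cannot show how far the 2-fold calls would repeat. Alternatives were 2 other floors, raising low values to the floor, centring, removal of a lowess trend (span 0.3), quantile normalization, the brightest probe set, probe sets with several symbols, and folds of 1.5 and 3. Python 3.11.15, numpy 2.4.6, pandas 2.3.3, statsmodels 0.14.6 and matplotlib 3.10.9 were used.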

Additional observations from a re-analysis of the deposited data

Results flagged for a closer look

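One probe set outside the comparisons carries both Qars1 and RGD1562301, a name that RefSeq lists as a synonym of Qars1. It was above the floor on both arrays, at 9.05 in SMiG and 9.76 in C6, which differ by -0.71, beside -0.65 for the probe set of Qars1 alone. With 1 array per group no array could be tested as an outlier.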

How the results depend on the processing

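Under centring, removal of the lowess trend and quantile normalization, the cytosolic median ran from -1.33 to -1.32 and 13 cytosolic genes were at least 2-fold lower. The difference between the compartment medians ran from -1.37, with a floor set at percentile 99 of the receptor genes, to -1.21. At that floor 13 mitochondrial genes were left, their median was 0.05, of the opposite sign to the reported -0.12, and 0 were at least 2-fold lower, since Yars2 was no longer detected. Lifting low values to the floor also gave a mitochondrial count of 0. At 1.5-fold the mitochondrial count was 3, and at 3-fold it was 0 and the cytosolic count 5. Under those 3 scalings the 102 values of the 34 genes moved by at most 0.06. Other floors and the brightest probe set could not change a difference of these genes, which have 1 probe set each. Leaving out Gars1 and Kars1, an alternative chosen after seeing the data, gave 12 of 17 cytosolic genes at least 2-fold lower and a median of -1.33. No paired analysis was possible because each group has 1 array. Precision is limited by the number of arrays, and by signal near the floor for Yars2 and Pars2.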
